A study of Homo sapiens with 12 samples.

Results

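The genes described here build cholesterol and fatty acids or control that synthesis, and they were followed in 2 human cell lines after depletion of nicastrin. The list names 32 genes of the mevalonate and sterol pathway, of fatty acid synthesis, elongation and desaturation, and of their shared regulation. It was chosen with earlier results of these data known, so shares of members set beside shares of all genes are descriptive. A listed gene was kept when the platform annotation gave it a probe that at least 3 of 12 arrays detected at p under 0.01. This left 29 members of 11075 measured genes: 17 in the sterol branch, 8 in the fatty acid branch and 4 regulators. FDFT1, the squalene synthase, and STARD4, a sterol carrier, had no probe in the annotation used here. FADS2, a desaturase of polyunsaturated fatty acids, was detected on only 1 array and fell outside the rule. SREBF2 was detected on 3 arrays and lay just inside it. The other members with incomplete detection were TM7SF2 (7 arrays), MVD (10 arrays) and MVK (11 arrays), and 25 of the 29 were detected on all 12.

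Cholesterol and fatty acids are both made from cytosolic acetyl-CoA. Genes of both routes are switched on by sterol regulatory element-binding proteins, transcription factors made as membrane-bound precursors in the endoplasmic reticulum. SCAP escorts the precursors to the Golgi, where proteases release the active part, and INSIG1 holds SCAP back when sterols are abundant. SREBF1 and SREBF2 encode the precursors, and by textbook accounts the SREBF2 product acts mainly on sterol genes and the SREBF1 product mainly on fatty acid genes.

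Each of 4 groups held 3 arrays: HEK001 cells with the NCSTN hairpin (labelled A08), HEK001 cells with the control hairpin (labelled pLKO, against luciferase), HEK293 cells with A08, and HEK293 cells with pLKO. NCSTN encodes nicastrin, a subunit of the membrane protease gamma-secretase. HEK001 is a keratinocyte line, grown here in a serum-free keratinocyte medium with epidermal growth factor and bovine pituitary extract, and HEK293 is an embryonic kidney line, grown in DMEM with serum, so the line and its medium cannot be told apart in any difference between lines. All groups carried a lentiviral hairpin, with virus given for 24 hours and polybrene at 10 µg/mL. All were kept in puromycin for about 2 weeks, at 2 µg/mL in HEK293 and at a labelled 0.5, with an incompletely written unit, in HEK001. One NCSTN hairpin was used, with the target gctctactgaatactctacat, so an effect of NCSTN loss and an effect of that hairpin on other transcripts cannot be told apart. One label field, the source name, reads HEK001 on all 12 samples, but 6 titles and their cell line entries read HEK293, and the titles were used. Whether replicates were separate cultures is not in the labels, so the p-values cover sample-to-sample spread that may be technical.

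Promoter windows are shown first for a few members whose levels carry the results below or whose window holds the motif of the pathway's own regulator. RefSeq windows (GRCh38.p14) running from 250 bases before to 50 bases after an annotated start were at hand for 28 of the 32 genes, 38 windows in all, with none for ACAT2, FDFT1, SQLE and FASN. They were searched on both strands for the sterol regulatory element written TCACNCCAC, for its shorter core CACNCCAC and for the NF-Y box CCAAT, a frequent neighbour of that element. Capitals mark matches to the core or to CCAAT on either strand, so ATTGG is CCAAT read on the other strand. INSIG1, the regulator with the largest fall in HEK293, has the window chr7:155297628-155297927 (plus strand). HMGCS1, which makes HMG-CoA, has chr5:43313363-43313662 (minus strand) and a second window, not shown, without a match to the core or the NF-Y box, and NSDHL, a sterol demethylation enzyme, has chrX:152830813-152831112 (plus strand). LSS, the lanosterol synthase, has chr21:46228725-46229024 (minus strand), SCD, the stearoyl-CoA desaturase, has chr10:100346983-100347282 (plus strand), and SREBF2 has chr22:41832855-41833154 (plus strand). Each is written 5′ to 3′ on the strand of its gene.
INSIG1: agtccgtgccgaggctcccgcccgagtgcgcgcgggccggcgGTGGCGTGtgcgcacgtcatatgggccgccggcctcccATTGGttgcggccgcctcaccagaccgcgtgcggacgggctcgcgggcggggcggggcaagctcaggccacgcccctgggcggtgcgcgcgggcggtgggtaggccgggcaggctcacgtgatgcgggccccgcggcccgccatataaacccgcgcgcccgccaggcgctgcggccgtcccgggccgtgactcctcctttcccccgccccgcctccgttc
HMGCS1: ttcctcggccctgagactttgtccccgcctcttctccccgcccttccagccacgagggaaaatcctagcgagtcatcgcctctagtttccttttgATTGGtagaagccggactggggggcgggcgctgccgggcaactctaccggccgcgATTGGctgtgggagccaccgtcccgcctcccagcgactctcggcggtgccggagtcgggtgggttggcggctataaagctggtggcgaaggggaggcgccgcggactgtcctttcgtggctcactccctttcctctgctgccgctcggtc
NSDHL: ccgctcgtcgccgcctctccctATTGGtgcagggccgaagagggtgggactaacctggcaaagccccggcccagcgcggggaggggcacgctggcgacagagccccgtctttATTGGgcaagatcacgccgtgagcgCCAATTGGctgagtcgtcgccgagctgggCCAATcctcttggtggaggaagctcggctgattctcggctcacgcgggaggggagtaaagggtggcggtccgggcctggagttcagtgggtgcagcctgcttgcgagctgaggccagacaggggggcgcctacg
LSS: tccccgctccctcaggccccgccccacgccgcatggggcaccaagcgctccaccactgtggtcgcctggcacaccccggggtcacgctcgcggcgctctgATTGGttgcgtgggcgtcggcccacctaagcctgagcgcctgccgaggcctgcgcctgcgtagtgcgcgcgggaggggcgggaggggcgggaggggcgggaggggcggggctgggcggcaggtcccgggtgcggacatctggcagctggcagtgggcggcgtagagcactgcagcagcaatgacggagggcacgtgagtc
SCD: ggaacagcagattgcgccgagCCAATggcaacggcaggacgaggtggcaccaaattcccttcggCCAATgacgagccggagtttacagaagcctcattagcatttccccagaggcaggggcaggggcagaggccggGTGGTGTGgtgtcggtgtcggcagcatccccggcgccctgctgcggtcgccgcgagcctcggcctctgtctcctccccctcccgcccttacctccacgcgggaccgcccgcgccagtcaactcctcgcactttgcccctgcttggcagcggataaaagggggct
SREBF2: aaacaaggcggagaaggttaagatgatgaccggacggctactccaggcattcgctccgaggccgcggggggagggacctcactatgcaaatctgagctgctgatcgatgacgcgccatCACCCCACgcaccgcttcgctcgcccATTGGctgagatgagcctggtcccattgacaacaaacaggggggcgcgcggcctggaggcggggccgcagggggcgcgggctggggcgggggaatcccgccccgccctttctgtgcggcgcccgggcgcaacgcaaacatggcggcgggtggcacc

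The INSIG1 window holds a core match 208 bases before the start and an NF-Y box 170 bases before it. SREBF2 was the only listed gene whose window held the longer TCACNCCAC, 133 bases before the start. The NF-Y box was in 26 of the 38 windows (68.4%, in 22 of 28 genes), against 34.6% of all 35097 promoter windows in the RefSeq table. The core was in 7 of the 38 windows (18.4%, in 6 genes: IDI1, SC5D, ACACA, SCD, INSIG1 and SREBF2), against 5.87% of all windows, and the longer element in 2.63% of the members' windows against 1.13%. Core and NF-Y box occurred together in 18.4% of the members' windows and 1.84% of all windows, and no match to one overlapped a match to the other. The Sp1 box GGGCGG was in 86.8% of the members' windows against 44.9%, and the E-box CANNTG in 55.3% against 68.7%. Windows of 1 gene can overlap: those of SC5D share their core match and NF-Y box, and those of ACLY share their NF-Y boxes. Every window was counted, among the members and among all genes. These counts describe letters in the windows and were not tested.

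Between 14818 and 16333 of 47318 probes were detected per array, with a median of 22 beads per probe on each. Correlations of normalized log2 signal ran from 0.9895 to 0.9943 between arrays of a group, and from 0.7692 to 0.7942 between lines. Of 8 keratinocyte markers 6 had a kept probe. All 6, KRT5, KRT14 and KRT15 among them, were detected on every HEK001 array, and none on the HEK293 pLKO arrays. LAMB3 was the only one of them detected in HEK293 A08 cells. Of 6 HEK293 markers 4 had a kept probe. LIN28B and GATA3 were detected on all 6 HEK293 arrays and on no HEK001 array, whereas NEFL was also detected on 5 of 6 HEK001 arrays and VIM on all 12, with VIM lower in HEK293 pLKO than in HEK001 pLKO cells (-0.28, adjusted p = 0.0158). Of the listed fibroblast markers only COL1A1 and LUM had a probe here, and of the melanocyte markers only PMEL, so the others were not measured. COL1A1 and LUM summed to between 21.5 and 75.6 units of background-subtracted signal over all arrays, and PMEL stayed between 3.91 and 61.3. Of 4 leukocyte markers only CD14 and CD68 were detected, with PTPRC and CD3D without a probe here. NCSTN itself read 6.55, 6.99 and 6.84 on the HEK001 A08 arrays, against 9.92, 9.95 and 9.77 on the pLKO arrays, all values being log2 normalized signal. In HEK293 it read 7.73, 7.77 and 7.89 with A08, against 9.66, 9.82 and 9.80 with pLKO. The groups lay far apart in both lines, and 11.8% of the NCSTN signal was left in HEK001 A08 cells and 25.5% in HEK293 A08 cells.

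With the NCSTN hairpin most called lipid synthesis genes were higher in HEK001, and all called ones were lower in HEK293. Among the 29 members, 11 were called in HEK001 (37.9%), of which 9 rose and 2 fell, and a call is an adjusted p under 0.05 over all 11075 genes. The background in HEK001 was 16.2% of all genes called, 8.35% higher and 7.89% lower. In HEK293, 16 of the 29 members fell (55.2%) and none was called higher, against a background of 25.9% called, 12.4% higher and 13.5% lower. The median log2 difference over the members was 0.21 in HEK001 and -0.40 in HEK293, against medians of all genes of -0.01 and 0.01.

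**Figure D1:**
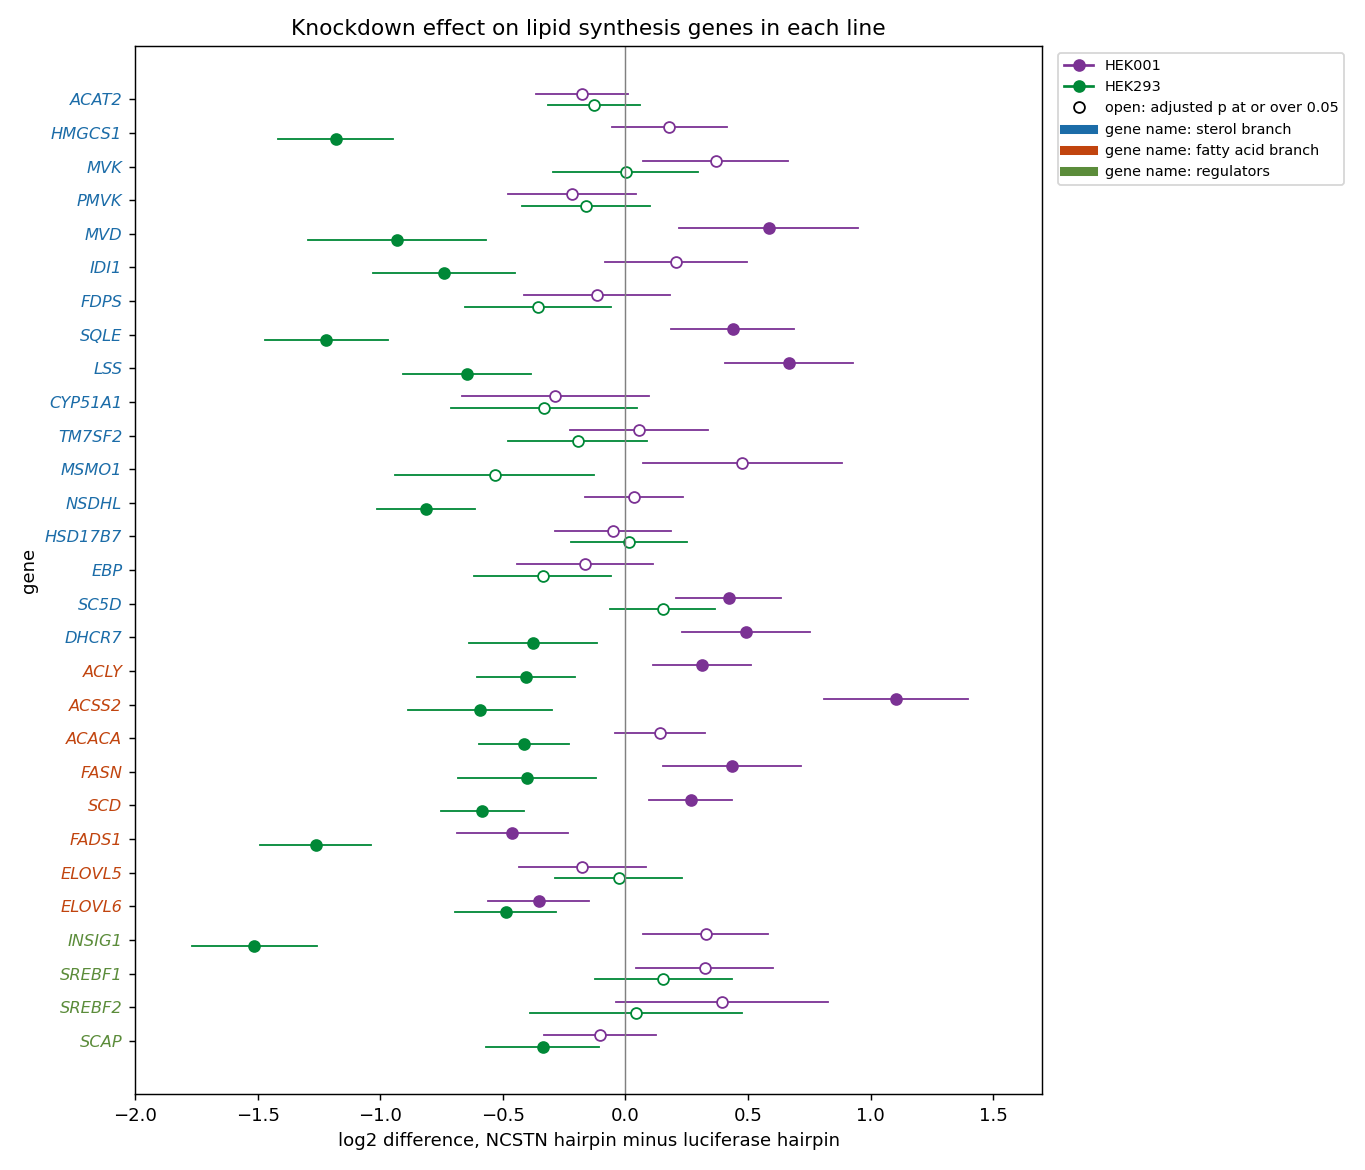
Log2 difference of each of the 29 members (rows), A08 minus pLKO, with 95% confidence intervals from the fit over 12 arrays, in HEK001 (purple) and HEK293 (green). Filled points passed an adjusted p under 0.05: 9 filled purple points lie right of 0 and 2 left of it, and all 16 filled green points lie left of 0. MVD was detected on only 1 of 3 HEK293 A08 arrays.

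The knockdown effect itself differed between lines for 15 members (51.7%), each with a lower HEK293 effect than HEK001 effect, against 24.5% of all genes, 11.7% in the higher and 12.8% in the lower direction. The median difference of effects was -0.55 over the members and 0.02 over all genes. Of the members, 8 were called higher in HEK001 and lower in HEK293: MVD, SQLE, LSS and DHCR7 of the sterol branch, and ACLY, ACSS2, FASN and SCD of the fatty acid branch. That is 27.6% of the members, against 1.71% of all genes (189). The knockdown contrasts share no arrays, although they share the estimate of each gene's spread. FADS1 and ELOVL6 fell in both lines. HMGCS1, IDI1, NSDHL, ACACA, INSIG1 and SCAP were called in HEK293 alone, SC5D in HEK001 alone, and 12 members in neither line.

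**Figure D2:**
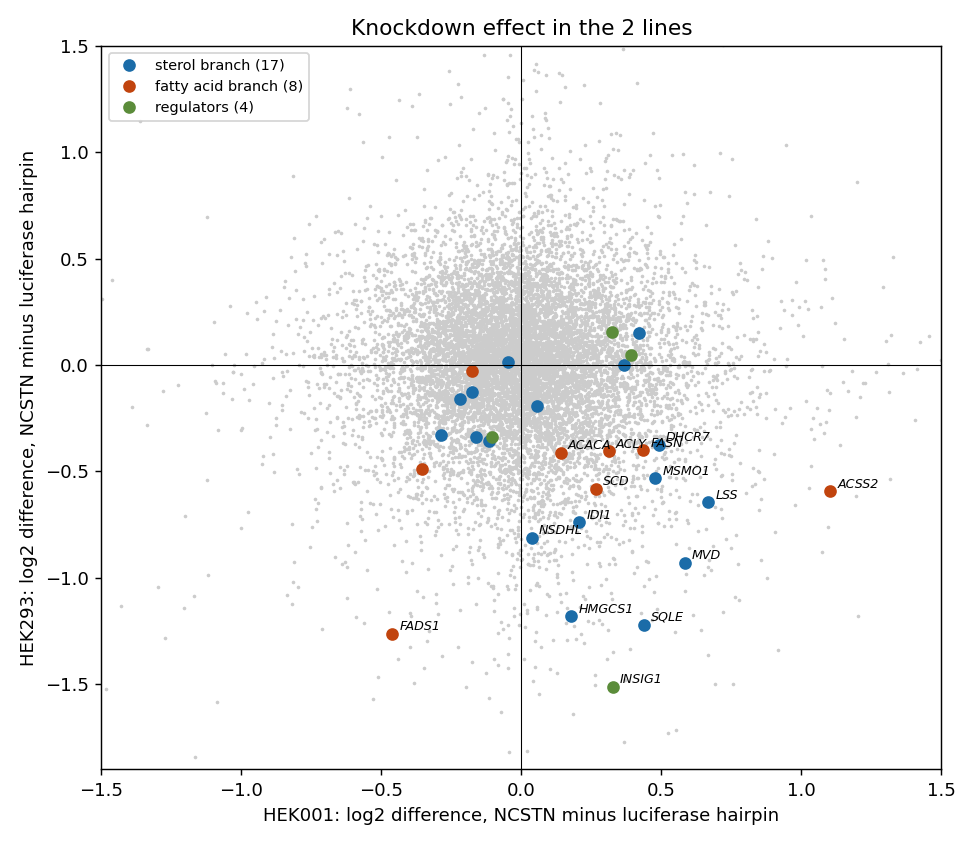
Log2 difference A08 minus pLKO in HEK001 (horizontal axis) against HEK293 (vertical axis) for the members, coloured by branch, and for the other 11046 measured genes in grey, 46 of which lie outside the axes. Names mark the 15 members whose effect differed between lines, 14 of which lie to the right of and below 0, with FADS1 to the left and below.

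Calls in HEK001 were less stable than those in HEK293. Leaving out 1 HEK001 array gave 5 called members without pLKO replicate 1, 6 without A08 replicate 1, A08 replicate 3 or pLKO replicate 2, and 7 without A08 replicate 2 or pLKO replicate 3. LSS, SC5D, ACSS2 and FADS1 kept their HEK001 call in all 12 fits that left out 1 array. Of all genes those fits called 1147 to 1859 in HEK001, against 1799 with every array. Median scaling of arrays in place of quantile normalization left 7 HEK001 calls, 5 higher and 2 lower, without SQLE, ACLY, FASN and SCD, and scaling on the median of all probes left 1, ACSS2. Of all genes these scalings called 1715 (770 higher) and 543 (258 higher) in HEK001. In HEK293 median scaling left 13 calls, without DHCR7, FASN and SCAP, and scaling on all probes left HMGCS1, MVD, IDI1, SQLE, NSDHL, FADS1 and INSIG1, all lower. These scalings called 2513 (1223 lower) and 905 (556 lower) of all genes in HEK293. There 13 of the 16 members kept their call in all 12 fits, the exceptions being DHCR7, FASN and SCAP. Of all genes those fits called 2260 to 2990 in HEK293. All 15 differences of effect were called in each of the 12 fits, and 6 of them, HMGCS1, MVD, SQLE, LSS, ACSS2 and INSIG1, under scaling on all probes. For this comparison the 12 fits called 2254 to 2548 of all genes, and scaling on all probes called 796.

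Both measured enzymes that supply cytosolic acetyl-CoA rose in HEK001 A08 cells and fell in HEK293 A08 cells. ACSS2, which makes acetyl-CoA from acetate, read 10.83, 10.53 and 10.56 on the HEK001 A08 arrays, against 9.57, 9.55 and 9.49 on the HEK001 pLKO arrays. The HEK293 arrays read 7.93, 7.40 and 7.86 with A08, against 8.40, 8.21 and 8.37 with pLKO. The groups did not overlap in either line, and all HEK001 arrays were above all HEK293 arrays. ACSS2 rose by 1.10 in HEK001 (SE 0.136, 2.15-fold, adjusted p = 0.000206), the largest rise of any member. It fell by 0.59 in HEK293 (SE 0.136, adjusted p = 0.00642), a difference of effects of -1.70 (adjusted p = 8.23e-05). A second ACSS2 probe gave 1.13 in HEK001 and -0.60 in HEK293, and one more, detected on 5 arrays, gave 0.52 in HEK001 and -0.02 in HEK293.

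ACLY, which splits citrate into acetyl-CoA and oxaloacetate, read 11.34, 11.52 and 11.54 in HEK001 A08 cells, against 11.10, 11.10 and 11.25 in pLKO cells. Its HEK293 arrays read 10.77, 10.86 and 10.94 with A08, against 11.32, 11.24 and 11.22 with pLKO. Each pair of groups was separate by a narrow margin. ACLY rose by 0.31 in HEK001 (SE 0.0928, adjusted p = 0.0371) and fell by 0.40 in HEK293 (SE 0.0928, adjusted p = 0.00657). The HEK001 call was lost with the mean of its probes (adjusted p = 0.0736) and in the fit on the HEK001 arrays alone (0.0735). It was also lost without A08 replicate 2 or 3 or pLKO replicate 1 or 2 (adjusted p between 0.102 and 0.112). A second ACLY probe gave 0.33 in HEK001 (adjusted p over probes = 0.214).

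Of the enzymes that build the chain, FASN was called in both lines and ACACA in HEK293. FASN, the synthase that assembles palmitate, read 12.82, 12.75 and 13.07 with A08 in HEK001, against 12.31, 12.53 and 12.49 with pLKO. In HEK293 cells FASN read 11.89, 11.78 and 11.92 with A08, against 12.36, 12.45 and 11.98 with pLKO. Replicate 3 of HEK293 pLKO lay close to the A08 values, and the groups still did not overlap. FASN rose by 0.44 in HEK001 (SE 0.130, adjusted p = 0.0375) and fell by 0.40 in HEK293 (SE 0.130, adjusted p = 0.0374). The HEK001 call of FASN was lost without any HEK001 array other than A08 replicate 2. Adjusted p there lay between 0.0593 (without pLKO replicate 2) and 0.13 (without pLKO replicate 1). Without the single HEK293 arrays other than pLKO replicate 3 its HEK293 call was lost, with adjusted p between 0.0651 (without A08 replicate 3) and 0.135 (without pLKO replicate 2). ACACA, which makes malonyl-CoA in the committed step, fell by 0.41 in HEK293 (SE 0.0845, adjusted p = 0.00334) and had a value of 0.14 in HEK001 (adjusted p = 0.293). A second ACACA probe gave -0.51 in HEK293 and 0.10 in HEK001.

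SCD, which places the double bond of oleate, had closely spaced replicates. It read 13.36, 13.35 and 13.35 with A08 in HEK001, against 13.10, 13.08 and 13.08 with pLKO. The HEK293 arrays read 11.65, 11.66 and 11.67 with A08, against 12.17, 12.31 and 12.24 with pLKO. SCD thus lay above its pLKO arrays in HEK001 by more than the range of either group, and below them in HEK293. It rose by 0.27 in HEK001 (SE 0.0781, adjusted p = 0.0351), a call that was lost without any 1 of the 6 HEK001 arrays (adjusted p between 0.0635 and 0.0933). In HEK293 it fell by 0.58 (SE 0.0781, 66.8% left, adjusted p = 0.000164).

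The 3 remaining genes of the branch act on chain length and polyunsaturation. FADS1, a desaturase of long polyunsaturated fatty acids, read 8.26, 8.38 and 8.09 in HEK001 A08 cells, against 8.70, 8.82 and 8.60 in pLKO cells. FADS1 in HEK293 read 7.72, 7.58 and 7.58 with A08, against 8.94, 8.77 and 8.96 with pLKO. Every A08 array was below every pLKO array of its line. FADS1 fell by 0.46 in HEK001 (SE 0.105, 72.6% left, adjusted p = 0.01) and by 1.26 in HEK293 (SE 0.105, 41.7% left, adjusted p = 3.57e-06), the largest fall of the branch. The HEK293 fall was the larger by 0.80 on the log2 scale (adjusted p = 0.00207).

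ELOVL6, which lengthens palmitate to stearate, read 8.77, 8.80 and 8.75 with A08 in HEK001, against 9.21, 9.08 and 9.09 with pLKO. With A08 in HEK293 it read 8.50, 8.18 and 8.23, against 8.81, 8.80 and 8.77 with pLKO. The A08 arrays lay below the pLKO arrays in both lines. ELOVL6 fell by 0.35 in HEK001 (SE 0.0955, adjusted p = 0.0242) and by 0.49 in HEK293 (SE 0.0955, adjusted p = 0.00254), and these falls differed by -0.14 with an interval from -0.43 to 0.16. The HEK001 call of ELOVL6 was lost without any HEK001 array other than pLKO replicate 2 (adjusted p between 0.0543 and 0.0872). Scaling on all probes also lost it (adjusted p = 0.285). A dimmer ELOVL6 probe gave -0.38 in HEK001 and -0.34 in HEK293 and passed the test in neither line. ELOVL5, which lengthens polyunsaturated chains, had values of -0.17 in HEK001 and -0.03 in HEK293, neither past the test.

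The first steps of the sterol branch separated the lines through HMGCS1. HMGCS1 read 10.74, 10.70 and 10.63 with A08 in HEK001, against 10.63, 10.56 and 10.34 with pLKO. In HEK293 cells it read 9.16, 9.14 and 9.22 with A08, against 10.29, 10.22 and 10.55 with pLKO. The HEK001 groups touched at their edges, whereas the HEK293 groups were about 1 log2 unit apart. HMGCS1 fell by 1.18 in HEK293 (SE 0.108, 44.1% left, adjusted p = 8.07e-06) and had a value of 0.18 in HEK001 (interval -0.05 to 0.41, adjusted p = 0.297), a difference of effects of -1.36 (adjusted p = 7.95e-05). ACAT2, the thiolase that joins acetyl-CoA units ahead of it, had values of -0.18 in HEK001 and -0.13 in HEK293, neither past the test.

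Of the enzymes that carry mevalonate to farnesyl diphosphate, MVD moved most. MVD, which decarboxylates mevalonate diphosphate, read 9.11, 8.78 and 9.15 with A08 in HEK001, against 8.29, 8.43 and 8.57 with pLKO. MVD in HEK293 read 5.13, 5.90 and 5.37 with A08, against 6.46, 6.35 and 6.38 with pLKO. No arrays overlapped, and the HEK293 A08 values were near background, with the probe detected on 1 of 3 arrays. MVD rose by 0.58 in HEK001 (SE 0.168, adjusted p = 0.032) and fell by 0.93 in HEK293 (SE 0.168, adjusted p = 0.00151), where the lowest detected signals of each array give a bound of at least 1.79-fold lower. Its HEK001 call was lost without A08 replicate 1 or 3 or pLKO replicate 1 or 2 and without background correction (adjusted p = 0.119).

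IDI1, the isomerase that follows MVD, fell by 0.74 in HEK293 (SE 0.134, 59.9% left, adjusted p = 0.0015) and had a value of 0.21 in HEK001 (adjusted p = 0.334). The kinases MVK and PMVK passed the test in neither line: MVK had values of 0.37 in HEK001 (adjusted p = 0.0863) and 0.00 in HEK293, and PMVK had -0.22 in HEK001 and -0.16 in HEK293. FDPS, which makes farnesyl diphosphate for sterols and for prenylated proteins, had values of -0.12 in HEK001 and -0.36 in HEK293 (adjusted p = 0.0748).

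The enzymes of squalene oxidation and cyclization, SQLE and LSS, were called higher in HEK001 and lower in HEK293. SQLE, which epoxidizes squalene in a rate-controlling step, read 11.32, 11.23 and 11.18 in HEK001 A08 cells, against 10.90, 10.72 and 10.81 in pLKO cells. In HEK293 it read 9.98, 10.23 and 9.90 with A08, against 11.30, 11.06 and 11.41 with pLKO. The A08 arrays were all above pLKO in HEK001 and all below it in HEK293. SQLE rose by 0.44 in HEK001 (SE 0.116, adjusted p = 0.022) and fell by 1.22 in HEK293 (SE 0.116, 42.9% left, adjusted p = 1.04e-05), with a difference of effects of -1.66 (adjusted p = 2.94e-05). Its second probe gave 0.30 in HEK001 (adjusted p over probes = 0.054) and -1.42 in HEK293. The HEK001 call of SQLE was lost without A08 replicate 1 or 2 or pLKO replicate 2 or 3 (adjusted p between 0.0524 and 0.0789). It was also lost under median scaling (adjusted p = 0.0656) and scaling on all probes (adjusted p = 0.507).

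LSS, which closes the sterol rings to give lanosterol, read 9.97, 9.93 and 10.13 with A08 in HEK001, against 9.35, 9.44 and 9.24 with pLKO. Its HEK293 arrays read 8.72, 8.64 and 8.44 with A08, against 9.31, 9.42 and 9.01 with pLKO. The pLKO values of both lines were close to each other, and A08 arrays lay above them in HEK001 and below them in HEK293. LSS rose by 0.67 in HEK001 (SE 0.121, 1.59-fold, adjusted p = 0.00275) and fell by 0.65 in HEK293 (SE 0.121, 1.56-fold, adjusted p = 0.00192).

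**Figure D3:**
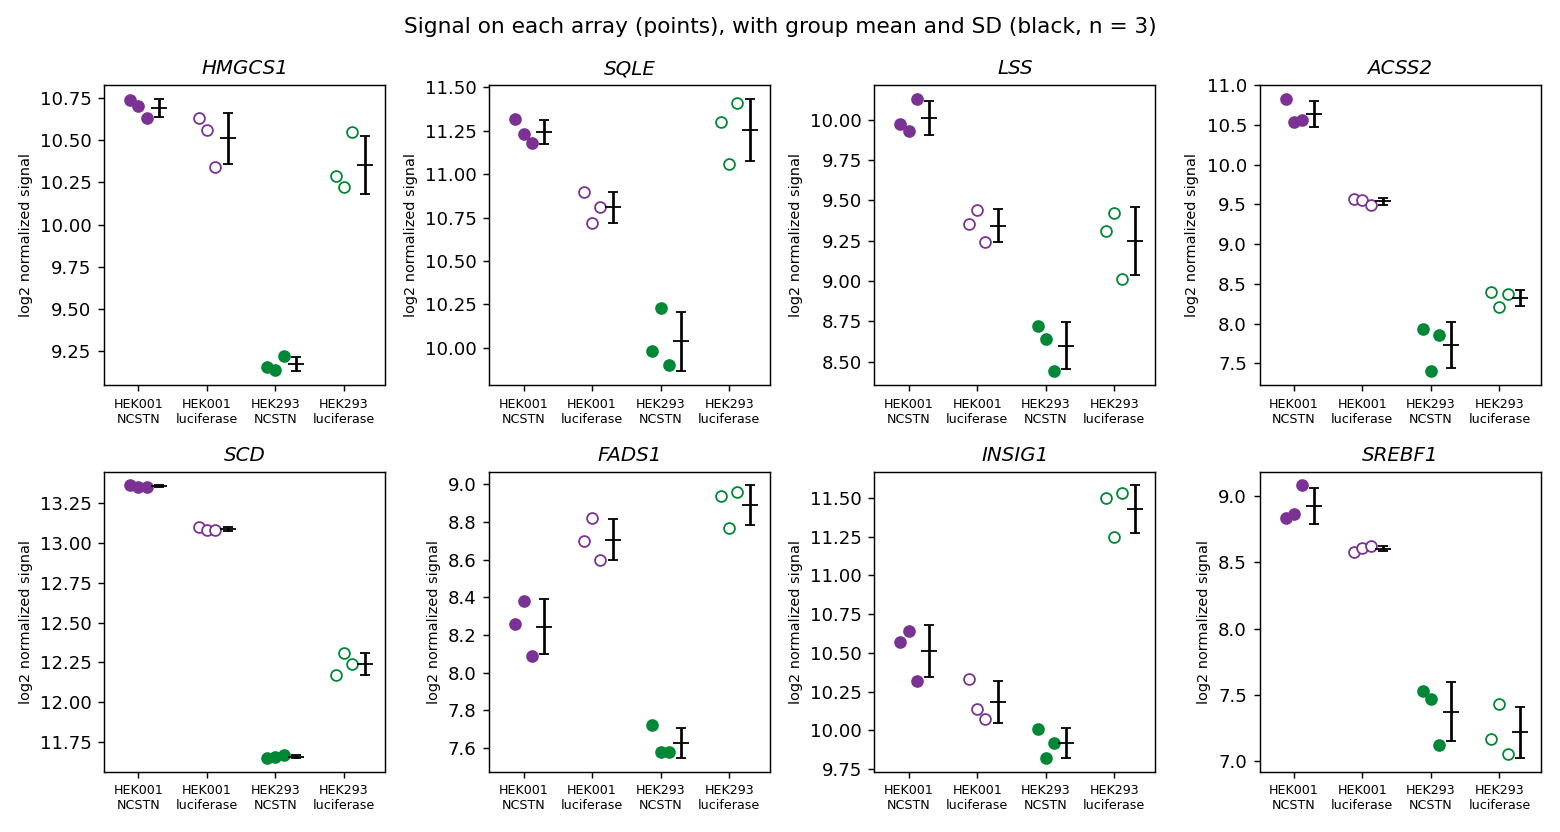
Log2 normalized signal (vertical axes) of 8 members on each of 12 arrays, A08 left of pLKO in each line (filled and open points), with the group mean and SD in black (n = 3). SQLE, LSS, ACSS2 and SCD are above pLKO in HEK001 and below it in HEK293, FADS1 is below it in both lines, and HMGCS1 and INSIG1 are far below it in HEK293 alone.

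After lanosterol, the enzymes of ring demethylation and reduction gave a mixed picture. DHCR7, which performs the last reduction to cholesterol, read 10.40, 10.32 and 10.66 with A08 in HEK001, against 9.91, 9.94 and 10.06 with pLKO. In HEK293 it read 9.06, 9.17 and 8.80 with A08, against 9.33, 9.51 and 9.32 with pLKO. The groups were separate in both lines. DHCR7 rose by 0.49 in HEK001 (SE 0.120, adjusted p = 0.0151) and fell by 0.38 in HEK293 (SE 0.120, adjusted p = 0.0359). The HEK001 call was lost without A08 replicate 3 (adjusted p = 0.0557) or pLKO replicate 1 (0.0529) and with scaling on all probes (0.364). The HEK293 call was lost without any HEK293 array other than A08 replicate 2 (adjusted p between 0.0537, without pLKO replicate 3, and 0.147, without A08 replicate 3). A second DHCR7 probe gave 0.51 in HEK001 and -0.40 in HEK293, both past the test.

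NSDHL, a sterol dehydrogenase of the demethylation complex, fell by 0.81 in HEK293 (SE 0.0923, 56.9% left, adjusted p = 4.8e-05) and had a value of 0.04 in HEK001 (interval -0.16 to 0.24). MSMO1, the oxidase of the same complex, had values of 0.48 in HEK001 (adjusted p = 0.105) and -0.53 in HEK293 (adjusted p = 0.0533), while the difference of effects, -1.01, passed the test (adjusted p = 0.0152). The MSMO1 probes did not move alike: a second one gave 0.91 in HEK001 (adjusted p over probes = 0.00177) and -0.68 in HEK293 (adjusted p over probes = 0.0062), and the last gave -0.03 in HEK001 and 0.08 in HEK293. HSD17B7, the reductase of the complex, had values of -0.05 in HEK001 and 0.01 in HEK293.

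SC5D, which desaturates the sterol ring before the DHCR7 step, rose by 0.42 in HEK001 (SE 0.0990, adjusted p = 0.012) and had a value of 0.15 in HEK293 (adjusted p = 0.292). CYP51A1, which removes a methyl group from lanosterol, had values of -0.29 in HEK001 and -0.33 in HEK293, and EBP, the sterol isomerase, had -0.16 in HEK001 and -0.34 in HEK293, none past the test. TM7SF2, a sterol reductase detected on 1 of 6 HEK001 arrays, had a HEK293 value of -0.19 (adjusted p = 0.307). Members not called in a line had values there between -0.53 and 0.48.

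Among the regulators, INSIG1 had the largest fall of any member. It read 10.57, 10.64 and 10.32 with A08 in HEK001, against 10.33, 10.14 and 10.07 with pLKO. With A08 in HEK293 it read 10.01, 9.82 and 9.92, against 11.50, 11.25 and 11.53 with pLKO. The HEK001 groups overlapped narrowly, and the HEK293 groups were more than 1 log2 unit apart. INSIG1 fell by 1.51 in HEK293 (SE 0.117, 35.1% left, adjusted p = 2.17e-06) and had a value of 0.33 in HEK001 (adjusted p = 0.0776, and 0.0392 without A08 replicate 3). The difference of effects was -1.84 (adjusted p = 1.39e-05), and a dimmer INSIG1 probe gave -1.12 in HEK293 and 0.10 in HEK001.

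SCAP read 9.64, 9.45 and 9.40 with A08 in HEK001, against 9.59, 9.61 and 9.59 with pLKO. HEK293 cells read 10.00, 9.95 and 9.67 with A08, against 10.25, 10.27 and 10.11 with pLKO. The HEK001 groups overlapped and the HEK293 groups did not. SCAP fell by 0.34 in HEK293 (SE 0.106, adjusted p = 0.0333), a call lost without A08 replicate 3 (adjusted p = 0.142), pLKO replicate 1 (0.0898) or pLKO replicate 2 (0.094), and it had a value of -0.10 in HEK001.

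The genes of the transcription factors themselves passed the test in neither line. SREBF1 read 8.83, 8.86 and 9.08 with A08 in HEK001, against 8.58, 8.61 and 8.62 with pLKO. In HEK293 it read 7.53, 7.47 and 7.12 with A08, against 7.17, 7.43 and 7.05 with pLKO. The HEK001 groups did not overlap and the HEK293 groups did, with values of 0.32 in HEK001 (interval 0.04 to 0.60, adjusted p = 0.11) and 0.15 in HEK293 (adjusted p = 0.422). SREBF2 read 5.58, 5.95 and 5.37 with A08 in HEK001, against 5.12, 4.99 and 5.61 with pLKO. The HEK293 arrays read 5.18, 4.73 and 5.43 with A08, against 5.04, 5.00 and 5.16 with pLKO, and none of these 6 was detected. SREBF2 thus sat at background, with 3 of 6 HEK001 arrays detected, and its value of 0.39 in HEK001 (adjusted p = 0.211) rests on such signals.

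The branches were compared as wholes by their counts and by their level on each array. In HEK001, 5 of 17 sterol genes rose and none fell (median log2 difference 0.18), and 4 of 8 fatty acid genes rose and 2 fell (median 0.20). Without pLKO replicate 3 of HEK001 the sterol median there was 0.09. In HEK293, 7 of 17 sterol genes fell (median -0.36), as did 7 of 8 fatty acid genes (median -0.45) and 2 of 4 regulators. In the difference of effects 8 of 17 sterol genes, 6 of 8 fatty acid genes and 1 of 4 regulators were called, all in the lower direction. Of all genes, 8.35% were called higher and 7.89% lower in HEK001. The shares called lower were 13.5% in HEK293 (25.9% in either direction) and 12.8% in the difference of effects (24.5% in either direction). The A08 and pLKO arrays did not overlap for 17 of the 29 members in HEK001, 14 above and 3 below, against 34.6% of all genes, 17.1% above and 17.5% below. In HEK293 they did not overlap for 17 members, all below, against 40.3% of all genes, 20.1% above and 20.2% below.

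The mean log2 signal of each branch, relative to each gene's mean over the 12 arrays, placed the groups in the same order for both branches. The sterol branch stood at 0.27 ± 0.03 in HEK001 A08 cells and 0.10 ± 0.02 in HEK001 pLKO cells, and at -0.41 ± 0.07 in HEK293 A08 cells and 0.05 ± 0.06 in HEK293 pLKO cells (SD, n = 3 each). The fatty acid branch stood at 0.37 ± 0.01 and 0.21 ± 0.02 in the HEK001 A08 and pLKO cells, and at -0.55 ± 0.08 and -0.03 ± 0.03 in the HEK293 A08 and pLKO cells. By these means A08 and pLKO arrays were apart for both branches in both lines. By the median over the 8 fatty acid genes they overlapped in HEK001, at 0.15, 0.26 and 0.30 with A08 and 0.22, 0.25 and 0.18 with pLKO, where ACSS2 had by far the largest rise. The sterol branch minus the fatty acid branch was -0.10 ± 0.02 in A08 cells and -0.12 ± 0.04 in pLKO cells of HEK001, and 0.14 ± 0.14 in A08 cells and 0.08 ± 0.08 in pLKO cells of HEK293. Those ranges overlapped within each line, so by the means no shift of one branch against the other was seen beyond the spread between arrays. By the branch medians the same difference did not overlap, by narrow margins and in opposite directions. In HEK001 it was 0.263, 0.129 and -0.038 with A08, against -0.042, -0.112 and -0.044 with pLKO. In HEK293 it was -0.132, -0.012 and -0.060 with A08, against 0.021, -0.003 and 0.087 with pLKO. This difference was not tested.

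**Figure D4:**
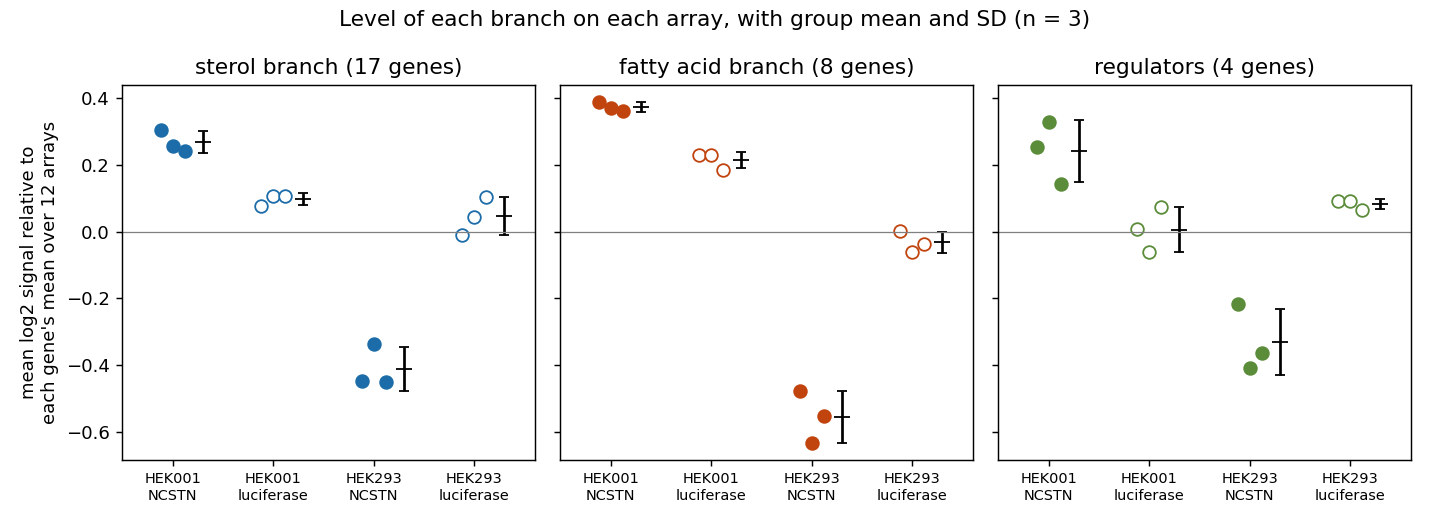
Mean log2 signal of each branch on each array, relative to each gene's mean over 12 arrays, A08 left of pLKO in each line (filled and open points), with group mean and SD in black (n = 3). In both main branches the HEK001 A08 arrays are the highest and the HEK293 A08 arrays the lowest, between -0.34 and -0.63.

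In control cells the 2 lines differed in most members, as they did in most genes. HEK293 pLKO against HEK001 pLKO cells gave 19 of 29 members called (65.5%), 8 higher and 11 lower, against 72.7% of all genes, 39.4% higher and 33.2% lower. Median scaling gave 6 higher and 14 lower members, against 4137 and 3834 of all genes. Scaling on all probes gave 4 and 13 members, against 2937 and 3889 of all genes. That setting itself moved the median of all genes from 0.07 to -0.13 in this comparison. Among the regulators, INSIG1 was higher by 1.25 in HEK293 (adjusted p = 4.58e-07) and SCAP by 0.61 (adjusted p = 0.000163), and SREBF1 was lower, at -1.38 (adjusted p = 4.35e-07). On a dimmer INSIG1 probe the line difference was 0.05 (adjusted p over probes = 0.754). TM7SF2 was at least 5.42-fold higher (adjusted p = 5.54e-10), with 1 of 3 HEK001 pLKO arrays detected, and SC5D and HSD17B7 were higher by 1.30 and 1.19. IDI1 and SQLE were higher by 0.62 and 0.45, the SQLE call being lost under both scalings and the IDI1 and SCAP calls with scaling on all probes. EBP was higher by 0.31, no call under either scaling and of opposite sign (-0.08) with scaling on all probes.

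MVD was the most reduced member in HEK293 pLKO cells relative to HEK001 pLKO cells, at -2.04 (adjusted p = 1.25e-07), followed among the early mevalonate enzymes by PMVK (-1.07) and by MVK, which 2 of 3 HEK293 pLKO arrays detected and which was at least 2.00-fold lower. Further down the pathway MSMO1 (-0.91), FDPS (-0.87), CYP51A1 (-0.69) and DHCR7 (-0.58) were lower as well. In the fatty acid branch 3 of 8 genes were called, all lower in HEK293: ACSS2 (-1.21), SCD (-0.85) and ELOVL6 (-0.33). HMGCS1, LSS, NSDHL, ACLY, ACACA, FASN and FADS1, which differed between lines in their response to the hairpin, had control differences between -0.18 and 0.18 and no call, although HMGCS1 and LSS were called lower under median scaling and HMGCS1 and FASN under scaling on all probes. This comparison shares its arrays with both knockdown contrasts.

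Other genes of the pathway were counted on lists assembled with earlier results of these data known. Of 8 measured genes of SREBP processing and degradation, 1 rose and 1 fell in HEK001 and 2 rose and 1 fell in HEK293. These were the proteases MBTPS1 (0.36) and MBTPS2 (-0.38) in HEK001, and ERLIN2 (0.68), UBXN8 (0.65) and INSIG2 (-0.60), the second INSIG gene, in HEK293. Of 11 other targets and suppliers, 3 rose and 2 fell in HEK001, and 5 fell and none rose in HEK293. SLC25A1, the mitochondrial citrate carrier, rose by 0.58 in HEK001 (adjusted p = 0.00161) and fell by 0.45 in HEK293 (adjusted p = 0.00467), as ACLY did. RDH11 (0.36) and LPIN1 (0.31) rose in HEK001, where TMEM97 (-0.50) and GPAM (-0.48) fell. TMEM135 (-0.70), PCYT2 (-0.65) and TMEM97 (-0.40) fell in HEK293, as did FBXO6, which was detected on 1 of 3 A08 arrays and at least 1.37-fold lower.

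Efflux, storage and LXR genes gave 1 rise among 10 in HEK001, and 1 rise and 3 falls in HEK293. ABCG1, a sterol exporter, rose by 0.56 in HEK001 (adjusted p = 0.0166) and was at least 1.22-fold lower in HEK293 (adjusted p = 0.0354), where NPC1 rose by 0.36 and OSBPL2 (-0.68) and LPCAT3 (-0.40) fell. Of 13 further elongases, desaturases and mitochondrial synthesis genes, HSD17B12, a reductase of chain elongation, fell by 0.44 in HEK001 and by 0.68 in HEK293. FADS3 was at least 1.07-fold higher in HEK001 and at least 1.09-fold lower in HEK293, and the other 11 were called in neither line. Of 13 fatty acid oxidation genes CPT2 rose in HEK001 (0.56), DECR1 rose in HEK293, by at least 2.35-fold, and ACADM (-0.47) and HADH (-0.35) fell there. Of 11 isoprenoid genes, FNTA rose in HEK001 (0.48) and DHDDS (0.66) and DOLK (0.58) rose in HEK293. The share called was 45.5% in both lines for the other targets and suppliers. It ran from 7.69% to 25% for the remaining 5 lists in HEK001 and from 15.4% to 40% in HEK293, around the backgrounds of 16.2% and 25.9%, and for fatty acid oxidation it was 7.69% and 23.1%.

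Markers of the lines moved beside these results. In HEK001, 3 of the 6 keratinocyte markers rose, KRT15 by 1.36, SFN by 0.52 and KRT5 by 0.35, and the summed marker signal ran from 43879 to 51887 in A08 cells and from 35713 to 49486 in pLKO cells. In HEK293 the keratinocyte marker LAMB3 was at least 1.46-fold higher (adjusted p = 0.000211). VIM, which encodes vimentin, rose by 1.79 there. The summed signal of the HEK293 markers with a probe, VIM included, ran from 17694 to 21615 in HEK293 A08 cells and from 4704 to 7208 in HEK293 pLKO cells. The same sum ran from 4609 to 6161 in HEK001 A08 cells and from 6411 to 9741 in HEK001 pLKO cells, and VIM fell by 0.34 in HEK001 A08 cells. LIN28B (-0.30), GATA3 (0.31) and NEFL (0.45) were not called in HEK293. The summed fibroblast markers COL1A1 and LUM ran from 24.6 to 50.5 in HEK293 A08 cells and from 63.3 to 75.6 in HEK293 pLKO cells. The melanocyte marker PMEL ran from 13.9 to 27.9 in HEK293 A08 cells and from 21.2 to 61.3 in HEK293 pLKO cells. COL1A1 was at least 1.56-fold lower in HEK293 A08 cells (adjusted p = 0.0011), PMEL at least 1.39-fold lower (adjusted p = 0.00897) and CD14 fell by 0.51 (adjusted p = 0.0264). Their part in the lipid gene results was not tested. Arrays of whole cultures were measured, so fewer cells of a kind and less RNA per cell cannot be told apart.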

How the data were processed

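RNA of 12 samples was hybridized to Illumina BeadChip arrays, 1 array per sample. Per the file headers, the deposited scanner table gives a mean intensity, a detection p-value and a bead count for each of 47318 probes and each array. The authors' deposited intensity is background-subtracted, since between 27.07% and 29.12% of values per array lie below 0. It is labelled as not normalized, and its median per array ran from 7.65 to 10.6. A second table, also deposited by the authors, gives log2 values with equal quartiles on all arrays, and it served as an alternative. GenomeStudio 2010 and R 3.0.2 are named, without a step, per the submitters' processing notes.

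Intensities were corrected by normexp from the detection p-values with an offset of 16 and quantile normalized after taking log2. The design had named limma's neqc, which normalizes before the log2 and gave values within 0.0304. Probes detected at p under 0.01 on at least 3 arrays were kept (18152, of which 14411 have 1 gene in the platform annotation), and the brightest stood for its gene (11075 genes). limma 3.58.1 in R 4.3.3 fitted 4 group means to all 12 arrays with empirical Bayes moderation (12.8 total degrees of freedom), p-values were adjusted by Benjamini-Hochberg across the 11075 genes, and the steps were tested on simulated data. Adjusted p-values come from this fit unless another setting is named beside them. Values adjusted over probes come from the same fit on the named kept probes. Where a group's arrays did not all detect a probe, a bound uses the lowest detected signal of each array.

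Members and lists were chosen with earlier results of these data known. Every measured member is named. Array values are given for the 4 highest and 4 lowest called members of each knockdown contrast, the 4 largest called line differences, and the regulators. Up to 3 called genes per direction and line are named from each other list, and the HEK293 values of SLC25A1 and TMEM97 were added after they were seen. Same-numbered A08 and pLKO arrays correlated between -0.0472 and 0.0719 in their deviations from group means, so numbers were not used as pairs. No scan date or chip was given in the sources used here. Alternatives covered background correction, scaling, filters, probe choice, the authors' table, fewer arrays and the replicate block.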

Additional observations from a re-analysis of the deposited data

Results flagged for a closer look

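The knockdown effect differed between HEK293 and HEK001 by the interaction term of the limma fit for 15 members, and each is given here as the HEK293 effect minus the HEK001 effect on the log2 scale. In the sterol branch the differences were -1.66 for SQLE, -1.51 for MVD, -1.36 for HMGCS1, -1.31 for LSS, -1.01 for MSMO1, -0.947 for IDI1, -0.867 for DHCR7 and -0.849 for NSDHL. In the fatty acid branch they were -1.70 for ACSS2, -0.848 for SCD, -0.837 for FASN, -0.801 for FADS1, -0.717 for ACLY and -0.555 for ACACA. INSIG1 had the largest, -1.84. Adjusted p ran from 1.39e-05 for INSIG1 to 0.0152 for MSMO1.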

How the results depend on the processing

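Comparisons were repeated under 22 other settings, 12 of which left out 1 array, except that the line difference needs all 4 groups and has no fit on the arrays of 1 contrast. With the authors' log2 table, quantile normalization before the log2 (added after seeing the data) or a looser filter, all 29 members kept their direction and side of the threshold in all 4 comparisons. Median scaling gave 7 called members and 1715 called genes in HEK001. The medians under it were 0.126 (sterol, HEK001), -0.295 (sterol, control lines) and -0.253 (fatty acid, control lines). Scaling on the median of all probes, added after seeing the data, gave 1, 7 and 6 called members for HEK001, HEK293 and the line difference, with 543, 905 and 796 genes called. Its medians were 0.103 (sterol) and 0.151 (fatty acid) in HEK001 and -0.459 and -0.416 in the control lines. It reversed EBP in the control lines to -0.0772, and it gave 2937 higher and 3889 lower genes there, against 4366 and 3680. The filter of 1 of 12 arrays, which adds FADS2, gave fatty acid medians of 0.141 in HEK001 and 0.0324 in the control lines, and a sterol minus fatty acid median of -0.129 in the control lines. The cause of these shifts was not tested.

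With 1 array left out, members called ran from 5 to 12 in HEK001, 13 to 16 in HEK293, 15 to 16 for the line difference and 18 to 20 for the control lines. Genes called ran from 1147 to 1859, 2260 to 2990, 2254 to 2548 and 7624 to 8121 in the same comparisons. The lowest HEK001 count of genes came without pLKO replicate 3. Sterol medians ran from 0.0941 to 0.238 in HEK001, -0.476 to -0.313 in HEK293 and -0.148 to -0.0557 in the control lines. Fatty acid medians ran from 0.174 to 0.223, -0.521 to -0.424 and -0.106 to -0.0100. The sterol minus fatty acid medians ran from -0.111 to 0.0168, -0.0346 to 0.172 and -0.0742 to 0.0145. Without HEK001 pLKO replicate 3 the HEK001 sterol median was the lowest, and the sign of the branch difference changed between fits in every comparison.

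With the replicate number as a block, 9 members were called in HEK001, 14 in HEK293, 15 for the line difference and 20 for the control lines, with 1622, 2729, 2580 and 8040 genes. FASN and SCD lost their HEK001 call and DHCR7 and FASN their HEK293 call, and ELOVL5 gained one in the control lines. Same-numbered arrays did not pair, and an array correlated best with its own number in 16 of 36 comparisons. The precision is limited by 3 arrays per group, and SREBF2 and, in HEK293, MVD lay near background.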
